A study of Homo sapiens with 12 samples.

Results

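The genes described here are 47 genes of DNA replication and of the transition from G1 to S phase. They were taken by symbol from a list of such genes, chosen with earlier results of these data known. They belong to 10 roles, from the proteins that mark replication origins to the cyclins and E2F factors that start S phase. All 47 of the 47 were found among 28087 genes with a transcript in the table, and all 47 passed the low-count filter that left 13113 genes for testing. They were followed by RNA sequencing in MV3, a human melanoma cell line.

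MV3 cells were given extracellular vesicles (EVs, membrane particles that cells release) collected by ultracentrifugation from macrophages derived from THP-1, a human monocytic leukaemia line. The donor macrophages had been polarized for 48 h, and 3 groups of MV3 cells received their vesicles: M1 EV, M0 EV and M2 EV. Ctrl cells received an equal amount of PBS, and each of the 4 groups had 3 libraries. All groups shared the same schedule of 3 h in RPMI medium whose serum (1%) had been freed of EVs, followed by 24 h with PBS or with 1e10 particles per well. The polarizing agents and whether replicates were separate cultures are not stated in the labels, so the p-values reflect only the spread between these libraries, which may be technical.

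Eukaryotic replication starts when the origin recognition complex, CDC6 and CDT1 load the MCM helicase ring on DNA in G1 phase. Cyclin E with its kinase, and a second kinase, then turn the ring into an active helicase together with CDC45 and the GINS complex, with MCM10 acting at that step. Primase and DNA polymerases copy both strands, the PCNA clamp and its RFC loader hold the polymerases on DNA, and RPA covers single-stranded DNA. Many of these genes are transcribed in late G1 by E2F factors once the retinoblastoma protein has been phosphorylated, so their messenger RNAs rise and fall with the cell cycle in dividing cells.

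The promoters of 4 of the genes are shown because their RNA differed between M1 EV and Ctrl under every way of processing that was tried, and because they range from several matches to E2F-type letters to none. RefSeq, on GRCh38.p14, gave the 250 bases before the start of UHRF1 (chr19:4909251-4909500, plus strand), MCM7 (chr7:100101398-100101647, minus strand), PRIM1 (chr12:56752324-56752573, minus strand) and MCM10 (chr10:13161308-13161557, plus strand). Each is written 5′ to 3′ on the strand of its gene, and capitals mark matches on either strand to any of 3 E2F-type motifs, TTTCCCGC, TTTGGCGC and TTCCCGCC, which may overlap one another.
UHRF1: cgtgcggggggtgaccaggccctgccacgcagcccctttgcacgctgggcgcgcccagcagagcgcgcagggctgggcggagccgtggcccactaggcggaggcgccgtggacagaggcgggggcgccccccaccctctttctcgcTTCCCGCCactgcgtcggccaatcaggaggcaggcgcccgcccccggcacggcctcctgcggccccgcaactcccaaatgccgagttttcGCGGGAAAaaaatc
MCM7: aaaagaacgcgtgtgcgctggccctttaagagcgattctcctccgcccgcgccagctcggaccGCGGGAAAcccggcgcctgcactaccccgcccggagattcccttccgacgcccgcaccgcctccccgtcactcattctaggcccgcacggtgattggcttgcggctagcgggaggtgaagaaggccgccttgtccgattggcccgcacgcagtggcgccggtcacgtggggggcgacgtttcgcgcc
PRIM1: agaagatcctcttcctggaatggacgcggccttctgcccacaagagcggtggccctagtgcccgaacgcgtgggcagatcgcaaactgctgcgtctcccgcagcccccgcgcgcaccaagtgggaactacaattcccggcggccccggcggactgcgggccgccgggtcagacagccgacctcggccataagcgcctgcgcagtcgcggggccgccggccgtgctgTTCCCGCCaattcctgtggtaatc
MCM10: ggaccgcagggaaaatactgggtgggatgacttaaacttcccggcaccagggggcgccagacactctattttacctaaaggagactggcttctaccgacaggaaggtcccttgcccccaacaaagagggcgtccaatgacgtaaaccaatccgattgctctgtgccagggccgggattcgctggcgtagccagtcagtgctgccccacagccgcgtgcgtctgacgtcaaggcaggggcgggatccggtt
In UHRF1 the first base of the matches lay 104 and 14 bases before the start, in MCM7 187 bases and in PRIM1 24 bases before it, and MCM10 held none of these letters in the printed stretch. The UHRF1 stretch lies inside the gene, which RefSeq places at 4903080 to 4962154, so it does not precede the gene's first base.

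A promoter entry was matched for 40 of the 47 genes. In a window of 300 bases, from 250 before to 50 after the start, at least 1 of the 3 E2F-type motifs was found in 24 of the 40 (60.0%), in 7.5% of the promoters of 10485 tested genes and in 4.61% of all 27305 promoters in the table. Among the genes that rose in M1 EV against Ctrl, 10 of 20 promoters held such letters, and among the other members 14 of 20 did. The CCAAT letters were present in 60.0% of the 40 promoters and in 36.8% of those of tested genes. The letters GGGCGG were about as frequent in both, at 70.0% and 69.5%. TTTGAA, letters of the element known from genes of mitosis, was in 2.5% of the members' promoters and in 9.8% of those of tested genes. A match is a description of the letters and not of a bound factor.

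Gene totals lay between 9694683 and 14379483 counts per library, and the scaling factors (TMM) between 0.9928 and 1.007. Pairs of libraries within a group had a chi-square of 1.04 to 2.33 per degree of freedom, where 1 is counting noise. M0 EV replicate 1 stood apart from M0 EV replicates 2 (2.01) and 3 (2.33), which differed least from each other, at 1.04 over 13105 genes (chi-square test on the counts of these libraries, p = 0.0022). They were kept as separate libraries, and results for M0 EV are also given with these libraries summed as 1, and without single M0 EV libraries where that changes a count. In the M1 EV against Ctrl comparison 3683 of 13113 genes were called at an adjusted p below 0.05 (28.1%). RNA was measured in bulk, so a larger share of cells in S phase and more RNA per cell cannot be told apart.

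M1 EV against Ctrl asked which genes of MV3 cells responded to vesicles of M1 macrophages. Of the 47 genes 22 rose and 1, GINS4, fell, where 14.3% of all tested genes rose and 13.7% fell (edgeR quasi-likelihood test, Benjamini-Hochberg adjusted p below 0.05). The rises were small, with log2 fold changes from 0.099 to 0.48 and a median of 0.14, which is 7.08% to 39.2% more RNA with a median of 10.5%. The largest were those of CCNE1, which encodes cyclin E1, MCM10, PRIM1 and CDC45. With DESeq2 12 of the 47 were called higher, and without Ctrl replicate 1 the edgeR test called 14. Over all genes DESeq2 called 2567 in either direction, and edgeR without Ctrl replicate 1 called 3044, against the 3683 above. For single genes, lost calls are given below for single libraries left out and for DESeq2 unless stated. Some calls were also lost under other ways of processing.

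Over all 47 genes the median log2 fold change was 0.11, against 0.00079 over all tested genes, and 40 of the 47 had a value above 0, against 50.2% of all tested genes. All 3 M1 EV libraries lay above all 3 Ctrl libraries for 25 members (19.6% of all tested genes) and below them for 3 members (20.0%). The same held against all 9 other libraries for 15 members (12.3% of tested genes), while GINS4 and LIG1 lay below all 9 (11.7%). Taken library by library, the median log2 ratio of the 47 genes to the Ctrl mean was 0.09 to 0.12 in the M1 EV libraries, 0.015 to 0.03 in the M0 EV libraries, 0.031 to 0.033 in the M2 EV libraries and -0.01 to 0.0025 in the Ctrl libraries themselves. None of the groups overlapped with another in this median, and the M1 EV libraries lay furthest from the Ctrl libraries. The Ctrl values lie near 0 because these libraries are set against their own mean.

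**Figure D1:**
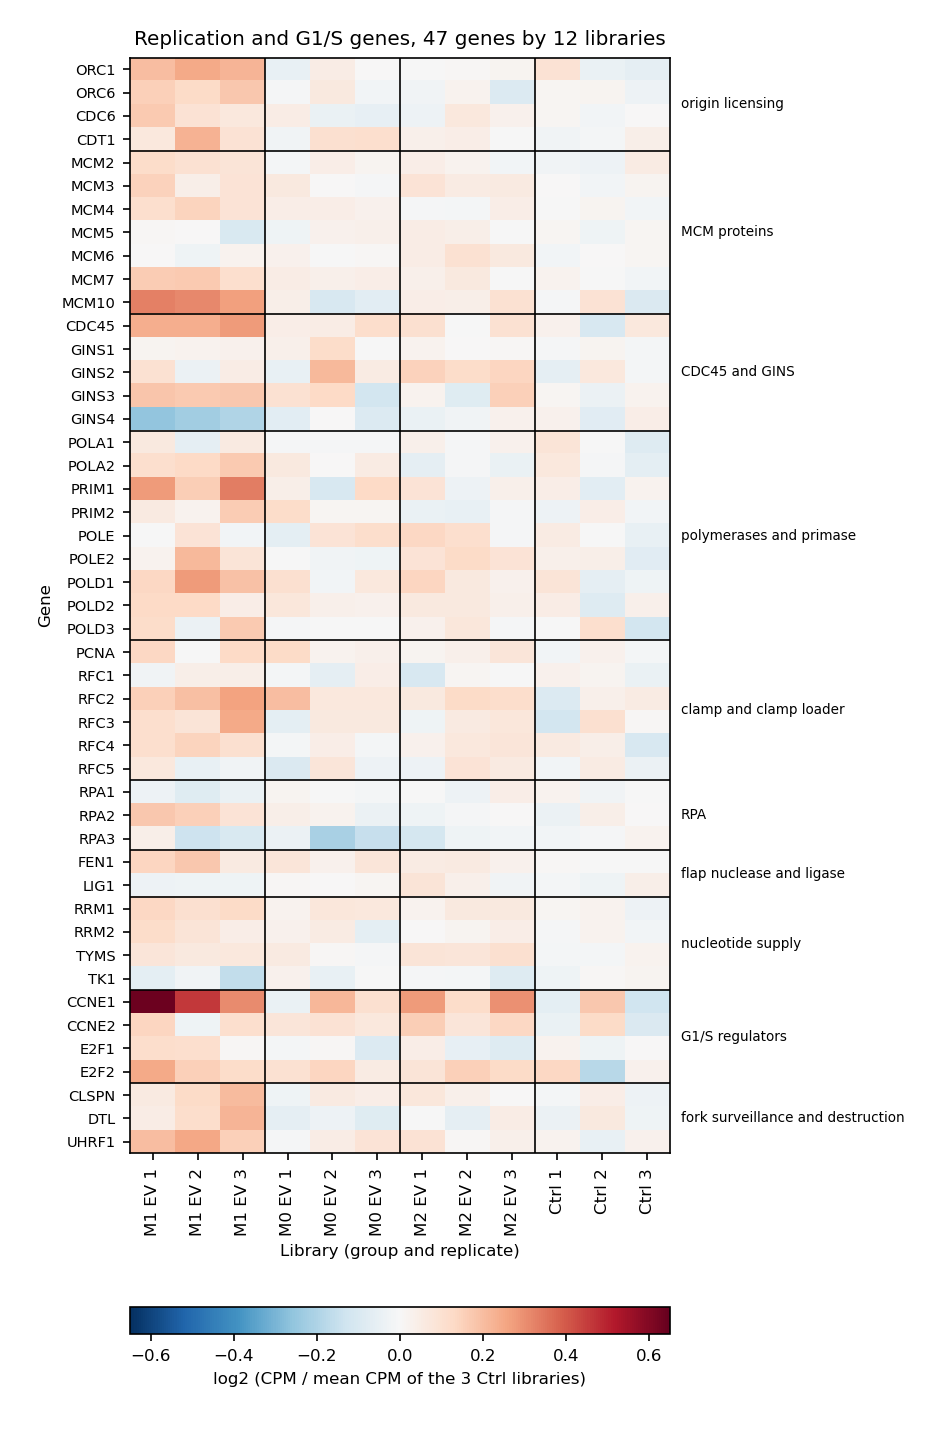
Each row is 1 of the 47 genes, ordered by role, and each column 1 of the 12 libraries, with the colour giving the log2 ratio of its level in counts-per-million units (CPM) to the mean CPM of the 3 Ctrl libraries. The 3 M1 EV columns are red for most genes, blue for GINS4, and darkest for CCNE1.

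In the origin licensing group 3 of 4 genes rose. ORC1, the large subunit of the origin recognition complex, had 42.3, 43.7 and 43.0 CPM in the M1 EV libraries, 35.7, 38.2 and 36.9 in the M0 EV libraries, 36.8, 37.1 and 37.3 in the M2 EV libraries and 39.4, 35.8 and 35.4 in the Ctrl libraries. Its lowest M1 EV library was above the highest of the other 9, although Ctrl replicate 1 came near to it. The log2 fold change over Ctrl was 0.22 ± 0.057 (SE, 95% interval 0.11 to 0.34, adjusted p = 0.00237). ORC6, the smallest subunit of that complex, averaged 38.5 ± 0.69 CPM in M1 EV and 34.7 ± 0.71 CPM in Ctrl (SD, n = 3 each), a rise of 0.15 ± 0.058 on the log2 scale (adjusted p = 0.0447). This call was lost without M1 EV replicate 1, 2 or 3 or Ctrl replicate 1, 2 or 3 (adjusted p = 0.0552 to 0.149) or with DESeq2 (adjusted p = 0.179). CDT1, which brings the helicase to origins with CDC6, rose by 0.13 ± 0.050 (adjusted p = 0.0448), and this call was lost without M1 EV replicate 2 or Ctrl replicate 1 or 2 (adjusted p = 0.103 to 0.314) or with DESeq2 (adjusted p = 0.131). CDC6 had 102, 97.2 and 95.3 CPM in the M1 EV libraries, against 91.7, 90.0 and 91.2 CPM in the Ctrl libraries. The groups did not overlap, but the log2 fold change of 0.11 ± 0.044 missed the threshold (adjusted p = 0.0569). It was called without M1 EV replicate 3 (adjusted p = 0.0394).

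Of the 7 MCM genes 4 rose. MCM10, which is not a subunit of the ring but acts when the helicase is switched on, had 73.3, 72.6 and 70.5 CPM in the M1 EV libraries, 60.2, 54.4 and 55.8 in the M0 EV libraries, 60.4, 60.0 and 62.6 in the M2 EV libraries and 58.2, 62.5 and 54.9 in the Ctrl libraries. Its lowest M1 EV library was 70.5 CPM and the highest of the other 9 was 62.6 CPM. The log2 fold change over Ctrl was 0.31 ± 0.051 (SE, 95% interval 0.20 to 0.41, adjusted p = 1.07e-05). MCM7, a subunit of the ring, had 373, 374 and 359 CPM in the M1 EV libraries, 345, 340.1 and 343 in the M0 EV libraries, 340.2, 348 and 332 in the M2 EV libraries and 338, 333 and 328 in the Ctrl libraries. All M1 EV values were above all others, and the log2 fold change was 0.15 ± 0.032 (SE, 95% interval 0.082 to 0.21, adjusted p = 0.000458). The ring subunit MCM4, which had the highest mean CPM of the 47 genes, averaged 476 ± 8.7 CPM in M1 EV and 439 ± 5.0 CPM in Ctrl (SD, n = 3 each) and rose by 0.11 ± 0.031 (adjusted p = 0.00388).

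MCM2 to MCM7 are the 6 subunits of the ring, with 1 copy of each. MCM2 rose by 0.099 ± 0.036 (adjusted p = 0.0361), but its call was lost without M1 EV replicate 1 or 2 or Ctrl replicate 1 or 2 (adjusted p = 0.0656 to 0.125) or with DESeq2 (adjusted p = 0.0719). MCM3 had a log2 fold change of 0.091 ± 0.037 (adjusted p = 0.0605). It was called without M1 EV replicate 2 (adjusted p = 0.024) and with transcripts summed per gene (adjusted p = 0.0492). MCM6 had 188, 184 and 191 CPM in the M1 EV libraries, 191, 187 and 189 in the M0 EV libraries, 194, 201 and 196 in the M2 EV libraries and 186, 188 and 189.6 in the Ctrl libraries. These values overlapped between M1 EV and Ctrl, with a log2 fold change of -0.00081 and a 95% interval from -0.072 to 0.07. MCM5 stood at -0.030 ± 0.036 (95% interval -0.1 to 0.043, adjusted p = 0.596), also with overlapping libraries. Differences between the subunits were not tested.

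CDC45 and GINS join the MCM ring to form the working helicase, and here the 5 genes went different ways. CDC45 had 39.0, 39.0 and 40.1 CPM in the M1 EV libraries, 34.1, 34.3 and 35.8 in the M0 EV libraries, 35.5, 33.0 and 35.5 in the M2 EV libraries and 33.8, 30.8 and 34.7 in the Ctrl libraries. Its 3 M1 EV libraries lay above all 9 others, and the log2 fold change was 0.25 ± 0.060 (SE, 95% interval 0.13 to 0.37, adjusted p = 0.00148). GINS4, a subunit of the 4-protein GINS complex, was the 1 member that fell. It had 61.5, 62.8 and 64.1 CPM in the M1 EV libraries, 70.0, 73.7 and 69.1 in the M0 EV libraries, 71.5, 72.5 and 75.1 in the M2 EV libraries and 75.0, 69.9 and 75.8 in the Ctrl libraries. Here every M1 EV library was below all 9 others, with a log2 fold change of -0.23 ± 0.048 (SE, 95% interval -0.33 to -0.13, adjusted p = 0.000289). The other subunits did not pass the test. GINS1 had a log2 fold change of 0.024 ± 0.039, GINS2 of 0.036 ± 0.060 and GINS3 of 0.17 ± 0.071 (adjusted p = 0.699, 0.711 and 0.0651). GINS3 had 30.4, 30.1 and 30.2 CPM in the M1 EV libraries, against 27.0, 26.1 and 27.2 CPM in the Ctrl libraries, groups that did not overlap.

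**Figure D2:**
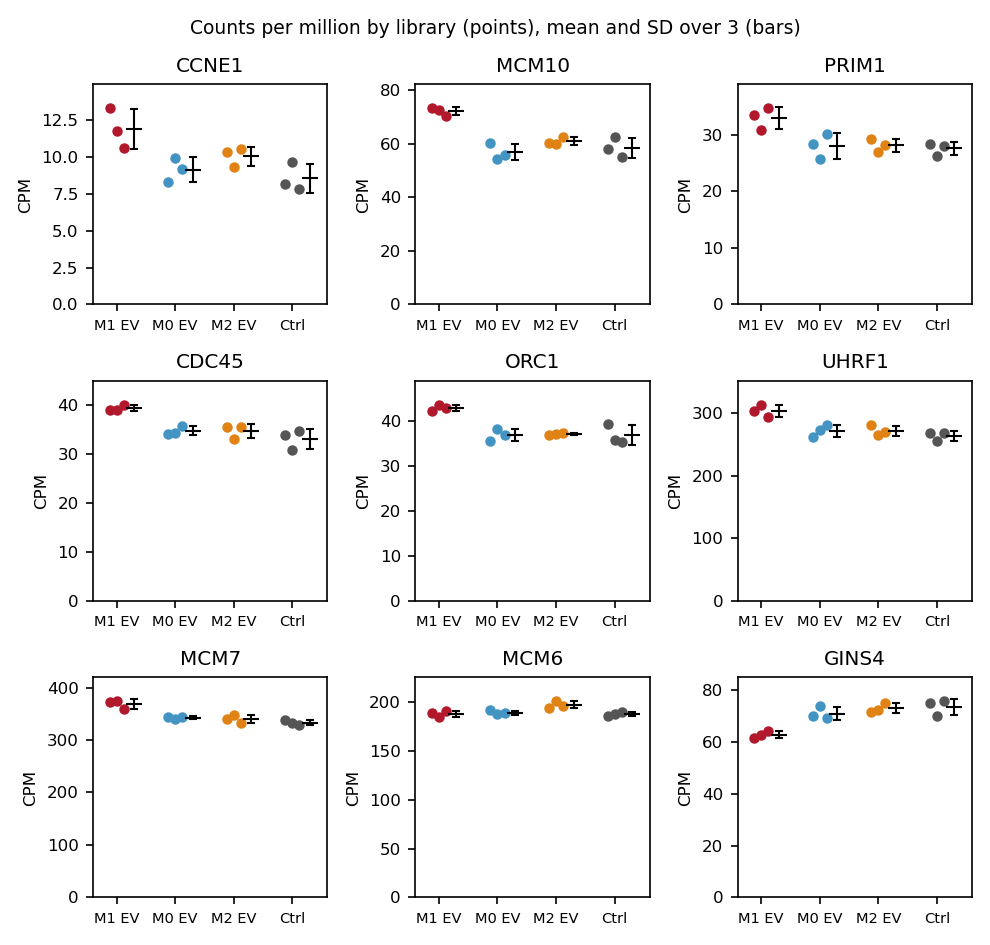
CPM (vertical axis, starting at 0) of 9 of the genes in each library, with points for single libraries and bars for the mean and SD of the 3 libraries of a group. CCNE1, MCM10, PRIM1, CDC45, ORC1, UHRF1 and MCM7 were highest in M1 EV, MCM6 overlapped between M1 EV and Ctrl, and GINS4 was lowest in M1 EV.

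Among the 9 genes of primase and the replicative polymerases 4 rose, and all 9 had a log2 fold change above 0. PRIM1, the catalytic subunit of primase, had 33.5, 30.8 and 34.7 CPM in the M1 EV libraries, 28.3, 25.6 and 30.2 in the M0 EV libraries, 29.3, 26.9 and 28.2 in the M2 EV libraries and 28.4, 26.3 and 28.1 in the Ctrl libraries. The lowest M1 EV library, at 30.8 CPM, was close to M0 EV replicate 3, at 30.2 CPM, while Ctrl reached 28.4 CPM. The log2 fold change over Ctrl was 0.25 ± 0.068 (SE, 95% interval 0.12 to 0.39, adjusted p = 0.00391). POLD1, the catalytic subunit of polymerase delta, had 179, 197 and 186 CPM in the M1 EV libraries, against 173, 157 and 159.8 CPM in the Ctrl libraries. The groups did not overlap, and the log2 fold change was 0.20 ± 0.043 (SE, 95% interval 0.12 to 0.29, adjusted p = 0.000282).

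POLA2, a subunit of polymerase alpha, rose by 0.14 ± 0.048 (adjusted p = 0.0256), a call lost without M1 EV replicate 3 or Ctrl replicate 2 or 3 (adjusted p = 0.0599 to 0.158) or with DESeq2 (adjusted p = 0.101). POLD2, another subunit of polymerase delta, rose by 0.10 ± 0.037 (adjusted p = 0.0363) with overlapping libraries, and lost the call without M1 EV replicate 1 or 2 or Ctrl replicate 2 (adjusted p = 0.12 to 0.247) or with DESeq2 (adjusted p = 0.0675). The 5 genes that did not pass were POLA1, POLE, PRIM2, POLE2 and POLD3. POLA1 and POLE, the catalytic subunits of polymerases alpha and epsilon, stood at 0.023 ± 0.052 and 0.025 ± 0.045 on the log2 scale, with 95% intervals from -0.083 to 0.13 and from -0.065 to 0.12. The accessory subunits PRIM2, POLE2 and POLD3 stood at 0.083 ± 0.055, 0.11 ± 0.065 and 0.089 ± 0.060.

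In the clamp and clamp loader group 3 of 6 genes rose, all of them RFC subunits. RFC2 had 42.1, 43.4 and 45.5 CPM in the M1 EV libraries, against 35.6, 38.8 and 39.3 CPM in the Ctrl libraries. The groups did not overlap, and the log2 fold change was 0.20 ± 0.059 (SE, 95% interval 0.085 to 0.32, adjusted p = 0.00738). Its call was lost without Ctrl replicate 1 (adjusted p = 0.0615). RFC4 rose by 0.12 ± 0.045 (adjusted p = 0.037), a call lost without M1 EV replicate 1 or 2 or Ctrl replicate 3 (adjusted p = 0.0636 to 0.309) or with DESeq2 (adjusted p = 0.112). RFC3 rose by 0.15 ± 0.058 (adjusted p = 0.0498), with overlapping libraries and a call lost without M1 EV replicate 1 or 3 or Ctrl replicate 1 or 3 (adjusted p = 0.0553 to 0.281) or with DESeq2 (adjusted p = 0.138). The large subunit RFC1 and RFC5 had log2 fold changes of 0.021 ± 0.043 and 1.4e-05 ± 0.05. PCNA, the clamp itself, had 285, 260 and 285 CPM in the M1 EV libraries, against 257, 266 and 259 CPM in the Ctrl libraries. M1 EV replicate 2 lay within the Ctrl range, and the log2 fold change of 0.088 ± 0.038 was not called (adjusted p = 0.0791). Without that library PCNA was called (adjusted p = 0.00937).

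Of the 3 subunits of RPA, only RPA2 was called. RPA2 averaged 63.5 ± 2.0 CPM in M1 EV and 57.6 ± 1.5 CPM in Ctrl (SD, n = 3 each) and rose by 0.14 ± 0.048 (adjusted p = 0.0266). The call was lost without M1 EV replicate 1 or 2 or Ctrl replicate 1 or 3 (adjusted p = 0.0643 to 0.109) or with DESeq2 (adjusted p = 0.11). The other subunits had values below 0, -0.051 ± 0.034 for RPA1 and -0.066 ± 0.062 for RPA3 (adjusted p = 0.282 and 0.474). FEN1, the nuclease that trims Okazaki fragments, had 142, 146 and 135 CPM in the M1 EV libraries, against 129.7, 129 and 129 CPM in the Ctrl libraries. It rose by 0.13 ± 0.039 without overlap (adjusted p = 0.0127), a call lost without M1 EV replicate 2 (adjusted p = 0.0841). LIG1, the ligase that seals the fragments, had 124, 125 and 125 CPM in the M1 EV libraries, against 126, 125 and 131 CPM in the Ctrl libraries. Its M1 EV libraries were the lowest of all 12, the gap between M1 EV replicate 3 and Ctrl replicate 2 being smaller than the rounding, and the log2 fold change was -0.030 ± 0.039 (adjusted p = 0.624).

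Among the enzymes of nucleotide supply 1 of 4 rose. RRM1, the large subunit of ribonucleotide reductase, had 312, 305 and 309 CPM in the M1 EV libraries, against 286, 289 and 277 CPM in the Ctrl libraries. Its libraries did not overlap, and the log2 fold change was 0.12 ± 0.033 (SE, 95% interval 0.054 to 0.19, adjusted p = 0.00464). RRM2, the small subunit, had 344, 335 and 327 CPM in the M1 EV libraries, against 315, 322 and 313 CPM in the Ctrl libraries. These also did not overlap, but the log2 fold change of 0.081 ± 0.034 missed the threshold (adjusted p = 0.0719). It was called without M1 EV replicate 3 (adjusted p = 0.045). TYMS, which makes thymidylate, stood at 0.071 ± 0.034 (adjusted p = 0.121). TK1, which salvages thymidine, had 323, 333 and 303 CPM in the M1 EV libraries, against 332, 339.9 and 343 CPM in the Ctrl libraries. It had a value below 0, -0.081 ± 0.036 (adjusted p = 0.0882), and was called lower without M1 EV replicate 2 (adjusted p = 0.0277).

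Of the 4 G1/S regulators 1 rose. CCNE1 had 13.3, 11.8 and 10.6 CPM in the M1 EV libraries, 8.30, 9.94 and 9.21 in the M0 EV libraries, 10.4, 9.30 and 10.5 in the M2 EV libraries and 8.20, 9.66 and 7.82 in the Ctrl libraries. The lowest M1 EV library was just above the highest M2 EV library, and well above the Ctrl libraries other than replicate 2. These values rest on 129, 129 and 108 counts in M1 EV and 82, 94 and 88 counts in Ctrl, the fewest of any member. The log2 fold change over Ctrl was 0.48 ± 0.11 (SE, 95% interval 0.25 to 0.71, adjusted p = 0.00105), and it lay between 0.39 and 0.57 when single libraries were left out. CCNE2, the other E cyclin, stood at 0.076 ± 0.060 with overlapping libraries (adjusted p = 0.379). E2F1 and E2F2, which switch on S-phase genes, stood at 0.077 ± 0.044 and 0.17 ± 0.084 (adjusted p = 0.201 and 0.142). E2F2 had 19.0, 17.9 and 17.5 CPM in the M1 EV libraries, against 17.6, 14.2 and 16.4 CPM in the Ctrl libraries, with M1 EV replicate 3 below Ctrl replicate 1.

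All 3 genes of fork surveillance and protein destruction rose. UHRF1, which reads newly copied DNA and brings in the maintenance DNA methyltransferase, had 304, 314 and 294 CPM in the M1 EV libraries, 262, 273 and 281 in the M0 EV libraries, 281, 265 and 269.6 in the M2 EV libraries and 268, 255 and 269 in the Ctrl libraries. All M1 EV libraries were above all others, and the log2 fold change was 0.20 ± 0.036 (SE, 95% interval 0.13 to 0.28, adjusted p = 2.63e-05). CLSPN, the adaptor that lets ATR activate CHEK1, rose by 0.13 ± 0.046 (adjusted p = 0.0259), a call lost without M1 EV replicate 3 or Ctrl replicate 1 or 3 (adjusted p = 0.0695 to 0.161) or with DESeq2 (adjusted p = 0.0861). DTL, which directs the destruction of CDT1 in S phase, had 64.7, 67.9 and 73.1 CPM in the M1 EV libraries, against 61.0, 65.6 and 61.5 CPM in the Ctrl libraries. Its lowest M1 EV library lay within the Ctrl range. The rise of 0.13 ± 0.051 (adjusted p = 0.0465) was lost without M1 EV replicate 2 or 3 or Ctrl replicate 1 or 3 (adjusted p = 0.0675 to 0.272) or with DESeq2 (adjusted p = 0.141).

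Of the 23 calls in M1 EV against Ctrl, 11 held under each of 12 alternatives, namely ORC1, MCM4, MCM7, MCM10, CDC45, PRIM1, POLD1, RRM1, CCNE1 and UHRF1 as higher and GINS4 as lower. These 11 include 1 or more genes of 7 of the roles, but none of the clamp loader, RPA or the flap nuclease and ligase. How many of all 3683 genes called in this comparison held in the same way was not determined.

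**Figure D3:**
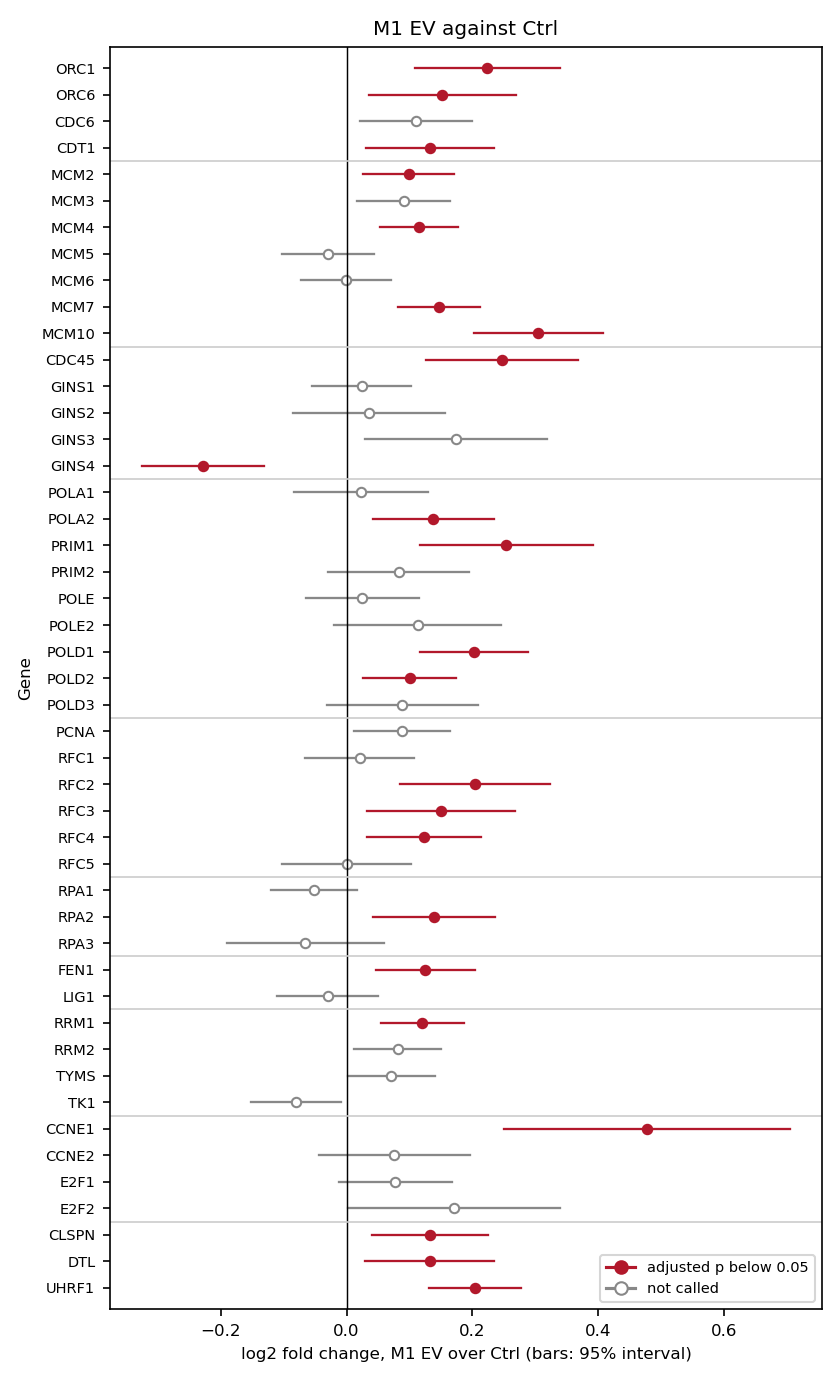
Log2 fold change of M1 EV over Ctrl for each of the 47 genes with its 95% interval, grouped by role from origin licensing at the top to UHRF1 at the bottom. Filled points are the 22 genes that rose and GINS4, which fell, and open points are the 24 that were not called.

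M0 EV against Ctrl and M2 EV against Ctrl asked whether vesicles of M0 or M2 macrophages acted on the same genes, and no member was called in either. In M0 EV against Ctrl edgeR called 0 members, as did DESeq2, where edgeR called 0.0153% of all genes. Of the 47 members 1 had an unadjusted p below 0.05, as did 665 of the 13113 tested genes. That 1 was RPA3, with 33.2 ± 2.0 CPM in M0 EV and 36.4 ± 0.50 CPM in Ctrl (SD, n = 3 each) and a log2 fold change of -0.13 ± 0.061 (SE, 95% interval -0.25 to -0.0048, adjusted p = 0.965). The median log2 fold change of the 47 genes was 0.019, against 0.0032 over all tested genes, and 35 were above 0 (51.9% of tested genes). The 95% intervals of all members lay between -0.25 and 0.33, the upper limit being that of CCNE1. Without M0 EV replicate 1, and with replicates 2 and 3 summed as 1, no member was called either.

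In M2 EV against Ctrl edgeR again called 0 members, as did DESeq2, where edgeR called 0.0458% of all genes. An unadjusted p below 0.05 was found for 814 of the 13113 tested genes and for 5 members. They were TYMS, GINS2, CCNE2, MCM6 and CCNE1, each with a higher mean in M2 EV. CCNE1 averaged 10.1 ± 0.66 CPM in M2 EV and 8.56 ± 0.97 CPM in Ctrl (SD, n = 3 each), a log2 fold change of 0.23 ± 0.11 (SE, 95% interval 0.0058 to 0.46, adjusted p = 0.786) with overlapping libraries. GINS2 had 52.1, 51.1 and 51.8 CPM in the M2 EV libraries, against 45.2, 49.3 and 46.6 CPM in the Ctrl libraries, which did not overlap (log2 fold change 0.14 ± 0.057, adjusted p = 0.737). The median of the 47 genes was 0.032, against 0.0013 over all tested genes, and 37 were above 0 (50.6% of tested genes). The 95% intervals lay between -0.17 and 0.46. In M2 EV against M0 EV edgeR and DESeq2 called 0 members, and edgeR called 0.0% of all genes. Of the members 1, TYMS, had an unadjusted p below 0.05, as did 447 of the 13113 tested genes.

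**Figure D4:**
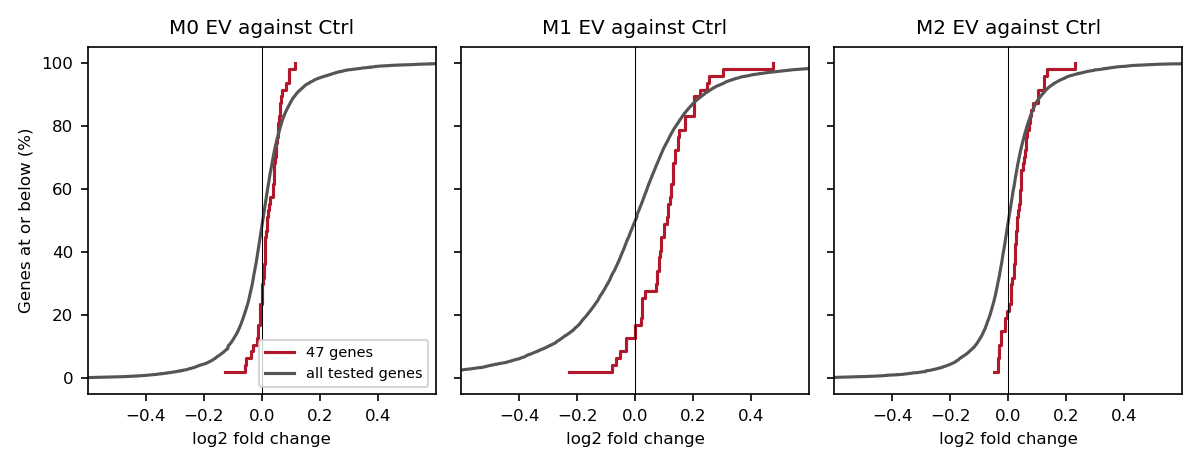
Cumulative share of genes (vertical axis, percent) at or below each log2 fold change (horizontal axis) for the 47 genes (red) and for all 13113 tested genes (grey), in M0 EV, M1 EV and M2 EV, each against Ctrl. The red curve lies to the right of the grey one over most of its length, furthest in M1 EV, where the medians are 0.11 and 0.00079, and all 3 panels share the same Ctrl libraries.

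M1 EV was also set against the other vesicles, which tests whether the response differed between vesicle types. In M1 EV against M0 EV 11 of the 47 genes were higher and GINS4 was lower, where 12.5% of tested genes were higher and 12.8% lower. The 11 were ORC1, CDC6, MCM7, MCM10, CDC45, PRIM1, POLD1, RPA2, CCNE1, DTL and UHRF1. MCM10 had the largest log2 fold change after CCNE1, 0.34 ± 0.051 (SE, 95% interval 0.24 to 0.44, adjusted p = 1.43e-06). UHRF1 was higher by 0.16 ± 0.036 (adjusted p = 0.000666) and GINS4 lower, at -0.17 ± 0.048 (adjusted p = 0.00575). CCNE1 was higher by 0.38 ± 0.11 (adjusted p = 0.0071), a call lost without M1 EV replicate 1 (adjusted p = 0.0703) or with DESeq2 (adjusted p = 0.0522).

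The count in M1 EV against M0 EV was 6 with DESeq2 and 6 without M0 EV replicate 2. It was 10 without M0 EV replicate 1, and 9 with M0 EV replicates 2 and 3 summed. Over all genes 3321 were called in either direction, against 2225 with DESeq2 and 2720 without M0 EV replicate 2. ORC6, MCM4, RFC4, E2F1 and CLSPN as higher and TK1 as lower were called only under 1 or 2 of the alternatives. Other calls were lost as follows. With M0 EV replicates 2 and 3 summed, CDC6 and RPA2 were not called (edgeR test, adjusted p = 0.0589 and 0.0518). CDC6 (log2 fold change 0.12 ± 0.044) was not called without M1 EV replicate 1 or M0 EV replicate 2 or 3 (adjusted p = 0.111 to 0.165) or with DESeq2 (adjusted p = 0.0916). CDC45 (0.18 ± 0.058) was not called without M1 EV replicate 3 or M0 EV replicate 1 or 2 (adjusted p = 0.0527 to 0.0542) or with DESeq2 (adjusted p = 0.0943). PRIM1 (0.23 ± 0.067) lost the call without M1 EV replicate 3 or M0 EV replicate 2 (adjusted p = 0.0573 to 0.0801) or with DESeq2 (adjusted p = 0.0501), and POLD1 (0.15 ± 0.042) lost it without M1 EV replicate 2 or M0 EV replicate 2 (adjusted p = 0.0666 to 0.0723). RPA2 (0.13 ± 0.047) was not called without M1 EV replicate 1 or 2 or M0 EV replicate 2 or 3 (adjusted p = 0.0655 to 0.158) or with DESeq2 (adjusted p = 0.141).

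In M1 EV against M2 EV 12 members were higher and GINS4 was lower, where 12.6% of tested genes were higher and 12.0% lower. These 12 were ORC1, ORC6, MCM4, MCM7, MCM10, CDC45, POLA2, PRIM1, POLD1, RPA2, DTL and UHRF1. MCM10 was higher by 0.24 ± 0.049 (adjusted p = 0.000215), UHRF1 by 0.16 ± 0.036 (adjusted p = 0.000596) and ORC1 by 0.21 ± 0.055 (adjusted p = 0.00296), and GINS4 stood at -0.22 ± 0.047 (adjusted p = 0.000436). POLA2 and MCM7 were higher by 0.17 ± 0.046 and 0.12 ± 0.032 (adjusted p = 0.00503 and 0.00539). CCNE1, at 0.25 ± 0.10, was not called (adjusted p = 0.0784), but it was without M1 EV replicate 3 (adjusted p = 0.0348). MCM6 had a mean below that of M2 EV, at -0.072 ± 0.034 (adjusted p = 0.127), and was not called.

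The count in M1 EV against M2 EV was 7 with DESeq2 and 7 without M2 EV replicate 2. Over all genes 3229 were called in either direction, against 2105 with DESeq2 and 2550 without M2 EV replicate 2. ORC6 (log2 fold change 0.18 ± 0.056) lost its call without M2 EV replicate 3 (adjusted p = 0.0874) or with DESeq2 (adjusted p = 0.0985), and MCM4 (0.11 ± 0.030) lost it without M2 EV replicate 2 (adjusted p = 0.0547). CDC45 (0.19 ± 0.057) was not called without M2 EV replicate 2 (adjusted p = 0.104) or with DESeq2 (adjusted p = 0.0858), and PRIM1 (0.23 ± 0.065) was not called without M2 EV replicate 2 (adjusted p = 0.0528). POLD1 (0.13 ± 0.042) lost its call without M2 EV replicate 2 or 3 or M1 EV replicate 2 (adjusted p = 0.0799 to 0.171) or with DESeq2 (adjusted p = 0.0579), and RPA2 (0.15 ± 0.047) did so without M1 EV replicate 1 (adjusted p = 0.0687) or with DESeq2 (adjusted p = 0.0777). DTL (0.13 ± 0.049) was not called without M2 EV replicate 1 or 2 or M1 EV replicate 2 or 3 (adjusted p = 0.0586 to 0.25) or with DESeq2 (adjusted p = 0.133). GINS3, FEN1, E2F1 and CLSPN were called as higher only under 1 to 3 of the alternatives. Median log2 fold changes of the 47 genes were 0.076 in M1 EV against M0 EV and 0.071 in M1 EV against M2 EV, and these comparisons share the M1 EV libraries with each other and with M1 EV against Ctrl.

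Levels differed far more between genes than between groups. In CPM per kilobase of transcript, which could be computed for 43 of the 47 genes, PCNA stood highest with 206 ± 11 in M1 EV and 194 ± 3.4 in Ctrl (SD, n = 3 each). TK1 followed with 190 ± 9.2 CPM per kilobase in M1 EV and 201 ± 3.2 in Ctrl, then POLD2 with 154 ± 5.0 and 144 ± 6.9. MCM7, with 120 ± 2.8 CPM per kilobase in M1 EV and 108 ± 1.5 in Ctrl, and MCM4, with 114 ± 2.1 and 105 ± 1.2, were the most abundant of the helicase subunits that have a length. The lowest were CCNE1, with 5.82 ± 0.67 CPM per kilobase in M1 EV and 4.19 ± 0.48 in Ctrl, and E2F2, with 3.49 ± 0.15 and 3.09 ± 0.33. Among the GINS subunits GINS1 stood at 40.1 ± 0.17 CPM per kilobase in M1 EV and 39.4 ± 0.44 in Ctrl, and GINS4 at 16.4 ± 0.34 and 19.1 ± 0.83.

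For 33 of the members the table held several transcripts with at least 300 counts in 2 or more of them. The log2 ratio of M1 EV to Ctrl had the same sign in all transcripts of 32 of these genes, RFC5 being the exception, and in all 18 of the called ones. CCNE1 transcripts had log2 ratios of 0.46 to 0.49, and UHRF1 transcripts 0.2. Transcripts of a gene share exons and are not independent measurements. 16 members share exon bases with a gene on the opposite strand, and the sources used here do not say if reads were counted by strand. CCNE2 shares 1629 bases with the protein-coding gene INTS8, GINS4 1159 bases with the antisense gene AC009630.2, MCM2 1113 bases with AC023593.1, TYMS 967 bases with ENOSF1 and MCM7 392 bases with AP4M1, so reads of these pairs may not be told apart. In addition, 6 members share exon bases with a gene on the same strand, such as POLA2 with AP000944.2 over 2012 bases and RRM2 with AC007240.1 over 1077 bases, where counting by strand would not separate them. 10 members have a named pseudogene, among them PCNA, RPA2, RRM2, TYMS, FEN1 and ORC1, whose values are uncertain to that extent.

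The machinery that decides on entry into S phase was followed in lists of further genes. These were chosen for their function, but with earlier results of these data known. Of 6 tested CDK inhibitors, proteins that hold back cyclin-dependent kinases, 1 rose and 3 fell in M1 EV against Ctrl, where 14.3% of all tested genes rose and 13.7% fell. With DESeq2 1 rose and 1 fell, where it called 2567 of all tested genes in either direction. CDKN1A (p21) had 19.0, 17.5 and 19.0 CPM in the M1 EV libraries, 8.95, 8.95 and 8.50 in the M0 EV libraries, 7.71, 8.96 and 8.53 in the M2 EV libraries and 6.80, 7.60 and 7.28 in the Ctrl libraries. Its M1 EV libraries did not overlap with any other group, and the log2 fold change over Ctrl was 1.35 ± 0.096 (SE, 95% interval 1.16 to 1.55, adjusted p = 2.21e-14). CDKN2C (p18) had 66.5, 69.2 and 66.2 CPM in the M1 EV libraries, 97.0, 97.4 and 100.4 in the M0 EV libraries, 97.7, 95.7 and 93.2 in the M2 EV libraries and 97.0, 95.4 and 102 in the Ctrl libraries. It fell in all 3 M1 EV libraries to below all 9 others, with a log2 fold change of -0.54 ± 0.045 (SE, 95% interval -0.63 to -0.45, adjusted p = 1.29e-12). CDKN2B (p15) averaged 5.89 ± 0.31 CPM in M1 EV and 8.04 ± 0.16 CPM in Ctrl (SD, n = 3 each), a log2 fold change of -0.44 ± 0.13 (adjusted p = 0.00799), a call lost with DESeq2 (adjusted p = 0.0531). CDKN1B (p27) fell by 0.16 ± 0.059 on the log2 scale with overlapping libraries (adjusted p = 0.0366), a call lost without M1 EV replicate 1 or 3 or Ctrl replicate 2 or 3 (adjusted p = 0.0609 to 0.258) or with DESeq2 (adjusted p = 0.12).

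Among 26 G1 cyclins, kinases, RB and E2F family genes 8 rose and 3 fell in M1 EV against Ctrl, beside the same shares of 14.3% and 13.7% over all tested genes. CCND1 (cyclin D1) had 466, 468 and 465 CPM in the M1 EV libraries, 517, 532 and 527 in the M0 EV libraries, 528, 528 and 532 in the M2 EV libraries and 538, 531 and 549 in the Ctrl libraries. All M1 EV values were below all others, with a log2 fold change of -0.21 ± 0.030 (SE, 95% interval -0.27 to -0.15, adjusted p = 5.27e-07). CDK6, a kinase partner of the D cyclins, had 174, 190.1 and 191 CPM in the M1 EV libraries, against 145, 145 and 131 CPM in the Ctrl libraries, which did not overlap, and rose by 0.41 ± 0.049 (adjusted p = 1.55e-08). MYC, a transcription factor of growth and proliferation, had 71.3, 71.2 and 68.0 CPM in the M1 EV libraries, against 56.9, 54.3 and 52.9 CPM in the Ctrl libraries, also without overlap, and rose by 0.36 ± 0.050 (adjusted p = 3.33e-07). MYBL2, a transcription factor of dividing cells, rose by 0.26 ± 0.034 (adjusted p = 1.99e-07). CDK2, CDK4 and RB1 were not called, with log2 fold changes of 0.018 ± 0.047, 0.088 ± 0.040 and -0.0034 ± 0.051 (adjusted p = 0.816, 0.0968 and 0.971).

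**Figure D5:**
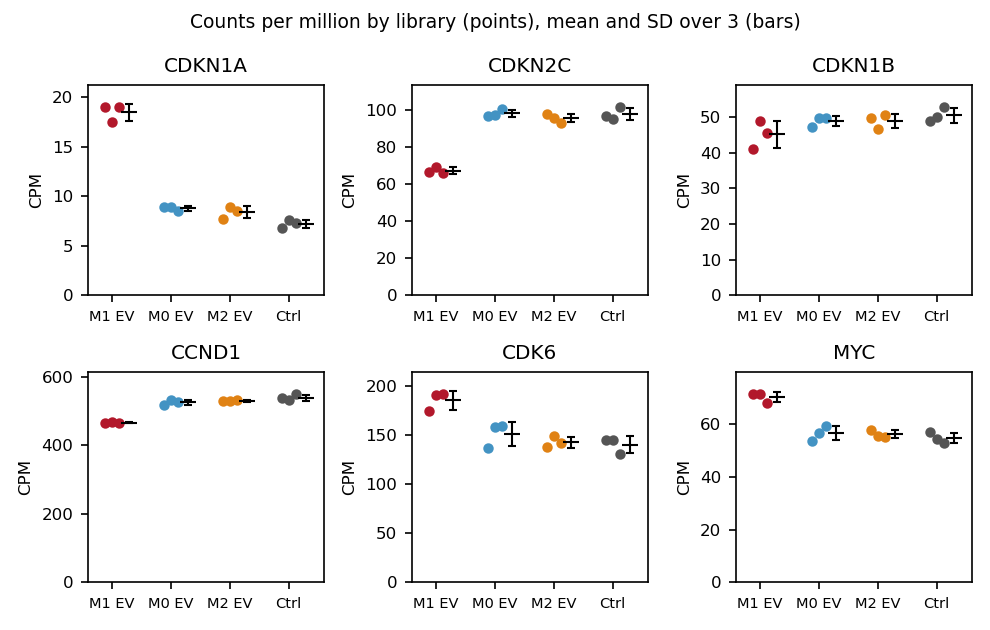
CPM (vertical axis, starting at 0) of 6 regulators of G1 in each library, with points for single libraries and bars for the mean and SD of the 3 libraries of a group. In M1 EV CDKN1A, CDK6 and MYC were higher and CDKN2C and CCND1 lower than in each other group, while CDKN1B overlapped with them.

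Further replication genes outside the 47 were followed as well. Of 30 other replication factors 7 rose and 0 fell in the edgeR test (14.3% and 13.7% of all tested genes). With DESeq2 3 rose and 0 fell, where it called 2567 of the 13113 genes in either direction. In the edgeR test 11 of the 30 had an unadjusted p below 0.05, as did 4897 of the 13113 genes. The number that rose was 4 with transcripts summed per gene and without Ctrl replicate 2 or M1 EV replicate 3, and 3 without Ctrl replicate 3. The number that fell was 1 without M1 EV replicate 3, with no low-count filter and in the fit on the 2 groups compared. Over all genes the edgeR settings named for these numbers called 3093 to 3646 in either direction. POLE3, a subunit of polymerase epsilon, rose by 0.20 ± 0.047 (adjusted p = 0.00115), MCMBP, which binds MCM proteins, by 0.16 ± 0.039 (adjusted p = 0.00205) and DSCC1, of an alternative clamp loader, by 0.26 ± 0.068 (adjusted p = 0.00318). CDC7, the second kinase of helicase activation, and GMNN, which holds CDT1 inactive, were not called, at 0.0073 ± 0.073 and 0.078 ± 0.052 (adjusted p = 0.956 and 0.29). The median of the 30 was 0.09.

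Of 20 further genes of nucleotide supply 11 rose and 2 fell, against 14.3% and 13.7% of all tested genes. DCTPP1, which breaks down abnormal deoxynucleotides, averaged 99.1 ± 3.5 CPM in M1 EV and 78.6 ± 3.1 CPM in Ctrl (SD, n = 3 each) and rose by 0.33 ± 0.044 (adjusted p = 1.49e-07). CTPS1, which makes CTP, rose by 0.27 ± 0.044 (adjusted p = 6.48e-06), IMPDH1, of guanine nucleotide synthesis, by 0.24 ± 0.046 (adjusted p = 9.84e-05), and PPAT, the first enzyme of purine synthesis, by 0.24 ± 0.055 (adjusted p = 0.000606). The number that fell was 1 with DESeq2, with transcripts summed per gene and without Ctrl replicate 2 or M1 EV replicate 1, and 0 without Ctrl replicate 3 or M1 EV replicate 2. Over all genes these settings called 2567 to 3448 in either direction.

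Among 20 genes of the replication checkpoint and repair of forks 5 rose and 1 fell, where 14.3% and 13.7% of all tested genes did, with BRCA1 higher by 0.16 ± 0.044 (adjusted p = 0.00459). The 1 that fell was ETAA1, which activates ATR and was named after its values were seen (-0.30 ± 0.094, adjusted p = 0.0132). The number that fell was 0 with DESeq2 and without Ctrl replicate 2 or M1 EV replicate 2 or 3, and 2 without Ctrl replicate 1. Over all genes these settings called 2567 to 3312 in either direction. CHEK1, the checkpoint kinase, was not called, at 0.048 ± 0.050 (adjusted p = 0.53).

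Of 17 genes that rebuild chromatin behind the fork 7 rose and 1 fell (14.3% and 13.7% of all tested genes). DNMT1, the maintenance methyltransferase that UHRF1 recruits, averaged 443 ± 10 CPM in M1 EV and 399.8 ± 7.8 CPM in Ctrl (SD, n = 3 each) and rose by 0.15 ± 0.032 (adjusted p = 0.000407), and CHAF1A, of the chromatin assembly factor, rose by 0.18 ± 0.043 (adjusted p = 0.00114). RBBP7, a histone-binding protein, fell, at -0.15 ± 0.040 (adjusted p = 0.00476). The number that rose was 3 without Ctrl replicate 1 and 4 without M1 EV replicate 1, and the number that fell was 2 without Ctrl replicate 2 or M1 EV replicate 2 or 3. Over all genes these settings called 3044 to 3312 in either direction.

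Genes of G2 phase and mitosis were also followed. Of 35 such genes 14 rose and 0 fell in the edgeR test (14.3% and 13.7% of all tested genes), and 18 had an unadjusted p below 0.05 (4897 of the 13113 tested genes). Of the same 35 genes 9 rose and 0 fell with DESeq2, and 9 rose without Ctrl replicate 1. Over all genes these settings called 2567 and 3044 in either direction. Their median log2 fold change was 0.083, against 0.11 for the 47 members. UBE2C, which loads ubiquitin for the mitotic ligase, rose by 0.19 ± 0.039 (adjusted p = 0.000184), CCNA2 (cyclin A2) by 0.18 ± 0.036 (adjusted p = 0.000208) and CDC20, an activator of that ligase, by 0.16 ± 0.033 (adjusted p = 0.00037). CCNB1 (cyclin B1) rose by 0.11 ± 0.035 (adjusted p = 0.0165), a call lost without M1 EV replicate 3 or Ctrl replicate 1 (adjusted p = 0.0556 to 0.082). MKI67, a marker of cycling cells, had 469, 527 and 509 CPM in the M1 EV libraries, 442, 529 and 545 in the M0 EV libraries, 500.2, 511 and 484 in the M2 EV libraries and 479, 463 and 409 in the Ctrl libraries. M1 EV replicate 1 lay below Ctrl replicate 1, and M1 EV overlapped with M0 EV and M2 EV. The log2 fold change was 0.16 ± 0.052 in M1 EV against Ctrl (adjusted p = 0.0195), 0.17 ± 0.051 in M0 EV against Ctrl (adjusted p = 0.551) and 0.15 ± 0.051 in M2 EV against Ctrl (adjusted p = 0.533). The call in M1 EV against Ctrl was lost without M1 EV replicate 2 or 3 or Ctrl replicate 3 (adjusted p = 0.0598 to 0.229) or with DESeq2 (adjusted p = 0.228). MKI67 was not called in M1 EV against M0 EV or M2 EV, at -0.0084 ± 0.051 and 0.011 ± 0.051. In M0 EV and M2 EV against Ctrl edgeR called 0 genes of any of these 7 lists, and 0 to 4 genes of a list had an unadjusted p below 0.05. Over all 13113 tested genes 665 in M0 EV against Ctrl and 814 in M2 EV against Ctrl had such a p.

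RNA of the donor cells was looked for with 30 macrophage markers, of which 4 passed the low-count filter and 8, CD163, TYROBP and HLA-DRA among them, had 0 counts in all 12 libraries. The summed level of the 30 was 75.1 to 77.3 CPM in M1 EV, 63.6 to 65.4 CPM in M0 EV, 64.7 to 68.7 CPM in M2 EV and 59.7 to 68.1 CPM in Ctrl. CD68, a lysosomal protein, made up most of it and rose by 0.24 ± 0.050 (adjusted p = 0.000244), and the protease CTSS, at under 5 CPM in each library, rose by 1.98 ± 0.28 (adjusted p = 7.25e-07). The part of these markers in the members' values was not tested. Of 15 melanocyte lineage markers 6 were tested, of which 2 rose and 0 fell in M1 EV against Ctrl (14.3% and 13.7% of all tested genes). TYR, DCT and S100B had 0 counts in all 12 libraries. MC1R, the melanocortin receptor, rose by 0.41 ± 0.049 (adjusted p = 1.87e-08) and PAX3, a lineage transcription factor, by 0.23 ± 0.079 (adjusted p = 0.035), the PAX3 call being lost without M1 EV replicate 1, 2 or 3 or Ctrl replicate 1 or 2 (adjusted p = 0.0542 to 0.124) or with DESeq2 (adjusted p = 0.142). The summed level of the 15 was 217 to 230.1 CPM in M1 EV, 196 to 202 CPM in M0 EV, 196 to 202 CPM in M2 EV and 188 to 199 CPM in Ctrl, so it was highest in M1 EV, and its part in the members' values was not tested either. MC1R made up much of this sum and most of its difference from Ctrl. It had 96.4, 99.2 and 89.0 CPM in the M1 EV libraries, against 74.0, 66.6 and 74.1 CPM in the Ctrl libraries. Markers of undifferentiated melanoma were abundant, with a summed level of 10450 to 10660 CPM in M1 EV and 10280 to 10450 CPM in Ctrl. It was 10500 to 10540 CPM in M0 EV and 10290 to 10470 CPM in M2 EV, so M1 EV overlapped with both. Of 13 tested 4 rose and 2 fell in M1 EV against Ctrl (14.3% and 13.7% of all tested genes).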

How the data were processed

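RNA was sequenced from 12 libraries of MV3 cells on directional poly(A) libraries, per the labels' protocols. The authors deposited expected counts, not normalized, for 70507 RefSeq transcripts, in steps of 0.5 (51.3% of those above 0 were fractional). STAR 2.6.1b, HOMER 4.10 and hg38 are named in the submitters' processing notes, without their roles. For M0 EV replicate 1 the column whose name lacks a digit of the cell line's name was used, as no other column remained for it.

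Transcripts were named with RefSeq on GRCh38.p14 (69830) and GENCODE 29 (327). Another 350, with 0.061% to 0.064% of a library's counts, had no name and were left out. Per gene the transcript with the highest sum over all libraries was kept and rounded to whole counts. Rows below edgeR's low-count filter were removed, leaving 13113 genes with 99.91% of the gene totals. The edgeR 4.0.16 quasi-likelihood test (R 4.3.3, limma 3.58.1) used TMM scaling and all 12 libraries with 1 term per group and 8 residual degrees of freedom, and p-values were adjusted over all tested genes (Benjamini-Hochberg, called below 0.05). Levels in counts-per-million units (CPM) are TMM-scaled. The biological coefficient of variation was 2.59%.

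The 47 members and the further lists were chosen with earlier results of these data known. Members were named freely. From each further list the 4 genes with the smallest p and a set of regulators could be named, except where the text says otherwise, and some of them are not reported here. The test was tried on simulated counts. Alternatives were DESeq2 1.42.0, RLE scaling, no low-count filter, the replicate number as a block, a fit on the 2 groups compared, transcripts summed per gene and leaving out each library. Counts in the further lists under these alternatives, and M0 EV replicates 2 and 3 summed, were added after seeing the data. Under the alternatives, calls over all genes were counted in either direction only, so shares that rose or fell were not determined. Promoter sequences are from RefSeq. PCR reads without molecular identifiers are not independent molecules, so precision from counts covers counting error only.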

Additional observations from a re-analysis of the deposited data

How the results depend on the processing

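No result changed direction while called. With RLE scaling all 23 calls of members in M1 EV against Ctrl were kept, and with the replicate number as a block 23 were kept as well. Deviations of same-numbered libraries from their group means correlated at -0.048 to 0.09 (18 pairs, 0 over 0.1), so the numbers were not taken as pairs. Of 30 other replication factors 1 fell under the block. DESeq2 kept 13 of the 23, the fit on the 2 groups compared 16 and summed transcripts 17. Members higher in M1 EV against Ctrl numbered 22, against 12 with DESeq2 and 14 to 19 with 1 library left out, the lowest without Ctrl replicate 1. Members lower numbered 1, and 1 to 2 with 1 library left out, the second being TK1 without M1 EV replicate 2. In M1 EV against M0 EV 11 members were higher, 6 with DESeq2 and 6 to 11 with 1 library left out, and 1 to 2 were lower. In M1 EV against M2 EV 12 were higher, 7 with DESeq2 and 7 to 14 with 1 library left out. Over all genes M1 EV against Ctrl gave 3683 calls (2567 with DESeq2 and 3044 to 3312 with 1 library left out). M1 EV against M0 EV gave 3321 (2225 with DESeq2) and M1 EV against M2 EV gave 3229 (2105 with DESeq2).

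The counts over all genes in comparisons without M1 EV depended on single libraries and settings. M0 EV against Ctrl gave 2 genes, 0 with DESeq2 or summed transcripts, 53 with no low-count filter, 20 with the replicate block, 1 with M0 EV replicates 2 and 3 summed and 0 to 87 with 1 library left out, the highest without M0 EV replicate 1. M2 EV against Ctrl gave 6, 2 with DESeq2, 31 with no low-count filter, 62 in the fit on the 2 groups compared, 0 with summed transcripts and 0 to 24 with 1 library left out, the highest without Ctrl replicate 2. M2 EV against M0 EV gave 0, 12 with no low-count filter, 1 with the replicate block and 0 to 36 with 1 library left out, the highest without M0 EV replicate 1. Members called in these 3 comparisons numbered 0 under each alternative. Causes of these differences were not tested. Most rises of the members were under 0.2 on the log2 scale, and 10 of the 23 calls were not made by DESeq2.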
